A study of Mus musculus with 6 samples.

Results

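The SLC25 family is the set of carrier proteins that move metabolites, nucleotides, cofactors and ions across the inner membrane of mitochondria. Its 51 rows in the liver count tables were taken by gene symbol: all symbols that begin with Slc25a and a digit, other than the carnitine carrier gene Slc25a20, together with Ucp1, Ucp2, Ucp3, Mtch1 and Mtch2. They are 51 of 23282 rows, and 38 of them held enough counts to be tested.

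Each carrier has a common fold of repeated membrane helices and exchanges or imports a small set of substrates, so the family sets which metabolites pass between cytosol and matrix. In hepatocytes these carriers export citrate for lipid synthesis, import ornithine for the urea cycle, pass reducing equivalents through the malate-aspartate shuttle and exchange ATP for ADP. Uncoupling proteins, which dissipate the proton gradient, belong to the same family, and a few divergent members sit in the outer membrane instead.

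The libraries came from livers of male C57BL/6N mice, labelled C57BL/6, that began a high-fat diet when 8 weeks old and ate it for 12 weeks. From week 8 of feeding the vehicle group (3 libraries) was given a vehicle whose composition is not given in the sources used here. The atractylodin group (3 libraries) was given atractylodin, a compound of Atractylodes plants, by mouth at 10 mg/kg on 5 days per week, and livers were taken 4 weeks later. All 6 libraries therefore share the diet, and the comparison is of drug with vehicle on that diet. RNA was counted by QuantSeq, which sequences 1 stretch near the 3' end of each transcript. The libraries are numbered within each group without a statement that each came from its own animal, and the p-values below reflect library-to-library spread, which may be technical.

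Vehicle 1 was the shallowest library, with 1831461 counts against 9871762 to 12565393 in the other 5, and 3 counts, a limit of detection that covers counting error only, equalled 1.61 CPM there and at most 0.313 CPM elsewhere. CPM are counts scaled to a common library size after TMM, edgeR's correction of library sizes for composition. Of 9 hepatocyte markers found, Alb was the most abundant (54160 ± 1488 CPM with vehicle, SD, n = 3), but Ass1, a urea cycle enzyme gene that is abundant in liver, stood at only 4.29 to 7.87 CPM. The hepatocyte sum was 92770 to 103800 CPM over the 6 libraries. Summed cholangiocyte markers, 7 genes, were 64.7 to 81.3 CPM with vehicle and 33.3 to 36.6 CPM with atractylodin, with falls of Sox9, Spp1 and Tstd1 in edgeR. The other tested marker, Epcam, did not fall, at 0, 1.80 and 2.35 CPM with vehicle and 2.49, 1.04 and 1.92 CPM with atractylodin. Krt7, Krt19 and Cldn7 were under 1.12 CPM in every library and were not tested, so the fall in the sum is that of a part of the list. Summed endothelial markers, 10 genes, were 392 to 399 CPM with vehicle and 353 to 367 CPM with atractylodin, where Stab2 fell, Lyve1 rose and Kdr was the most abundant. Sums overlapped between groups for macrophage (12 genes, Cd5l the most abundant), stellate (7 genes, Dcn the most abundant), lymphocyte and neutrophil (9 genes, S100a8) and erythroid markers (8 genes, Hba-a1 the most abundant and Alas2 lower), and for adipocyte and skeletal muscle markers. The part of these other cells in the carrier results was not tested.

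The promoter windows of Slc25a33, Slc25a10 and Slc25a22 are shown because these genes passed the test described below, Slc25a33 higher and the others lower with atractylodin. Slc25a51, which also passed, is not shown because it had no window in the RefSeq set used. Each is the RefSeq promoter window of 300 bases on GRCm38.p6, from 250 bases before the transcript start to 50 after it, written 5′ to 3′ on the strand of the gene, and Slc25a22 has other annotated starts. Capitals mark matches on either strand to CACGTG, the E-box, to CCAAT, the CCAAT box, and to CCGCCC, the GC box.
Slc25a33: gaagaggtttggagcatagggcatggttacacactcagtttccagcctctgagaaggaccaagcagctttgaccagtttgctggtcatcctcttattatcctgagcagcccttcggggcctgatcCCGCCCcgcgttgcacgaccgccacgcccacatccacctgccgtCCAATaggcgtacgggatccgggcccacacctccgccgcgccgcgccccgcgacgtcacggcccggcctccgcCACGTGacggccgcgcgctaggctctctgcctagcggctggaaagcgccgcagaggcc
Slc25a10: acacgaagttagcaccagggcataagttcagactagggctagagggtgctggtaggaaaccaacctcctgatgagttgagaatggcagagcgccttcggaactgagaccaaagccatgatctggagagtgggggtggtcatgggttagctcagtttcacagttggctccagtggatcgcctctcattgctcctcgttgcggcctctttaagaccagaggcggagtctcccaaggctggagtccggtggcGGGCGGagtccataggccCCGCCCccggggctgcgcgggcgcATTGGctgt
Slc25a22: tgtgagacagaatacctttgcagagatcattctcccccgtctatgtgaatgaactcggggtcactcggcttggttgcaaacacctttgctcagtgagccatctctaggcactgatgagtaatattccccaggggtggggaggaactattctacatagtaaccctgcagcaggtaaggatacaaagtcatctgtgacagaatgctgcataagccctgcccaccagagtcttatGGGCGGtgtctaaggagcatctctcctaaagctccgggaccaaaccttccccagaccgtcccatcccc
The Slc25a33 window (chr4:149774218-149774517, minus strand) held 30 CpG dinucleotides, more than 88.3% of all 32851 RefSeq windows, and matched all 3 motifs. The Slc25a10 window (chr11:120491587-120491886, plus strand) held 15 CpG, with GC box matches and a CCAAT box match. The Slc25a22 window (chr7:141437825-141438124, minus strand) held 6 CpG and a single GC box match, and was chosen as the one nearest the annotated gene start. The other 2 Slc25a22 windows held 10 CpG, with 3 GC box matches and a CCAAT box match, and 8 CpG, with 1 GC box match. No match of 1 motif overlapped a match of a different motif in these windows. The 3 GC box matches of the Slc25a22 window with 10 CpG form a single run, in which each shares a base with the next.

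RefSeq windows were found for 30 of the 38 tested genes, 40 windows in all, and their median CpG count was 17, against 7 over all windows. The GC box was in 34 of the 40 windows (85%) and in 35.7% of all windows, and the CCAAT box in 19 (47.5%) against 37.4%. CACGTG was in 6 (15%) against 7.15%, and CCGGAA, the core of ETS factor sites, in 10 (25%) against 14.9%. AAGGTCA, a core element of nuclear receptor sites, was in 2 (5%) against 4.72%. The palindromic consensus site of nuclear respiratory factor NRF1 was in none of the 40 windows and in 0.971% of all windows. Both strands were searched, and these shares describe letters in the windows and not binding. The set of all windows was not limited to genes tested in these livers, and a gene with several windows entered more than once. The shares therefore do not compare the carriers with other tested genes.

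The family's counts were concentrated in a few genes. The 10 most abundant members held 75.9% to 78.7% of the family's CPM in every library. They were, in order of mean level, Slc25a47, Slc25a39, Slc25a3, Slc25a15, Slc25a13, Slc25a5, Mtch2, Slc25a22, Slc25a51 and Slc25a10. QuantSeq gives about 1 tag per transcript, so these levels were compared without division by length. The gene annotation and the handling of reads with several matches are not given, and Ass1, abundant in liver, was low in these counts. The order of genes and the shares between related genes below therefore hold for these counts only. Over all 6 libraries, 12 members averaged at least 100 CPM, 16 between 10 and 100, 10 between 1 and 10, and 13 less than 1 CPM.

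**Figure D1:**
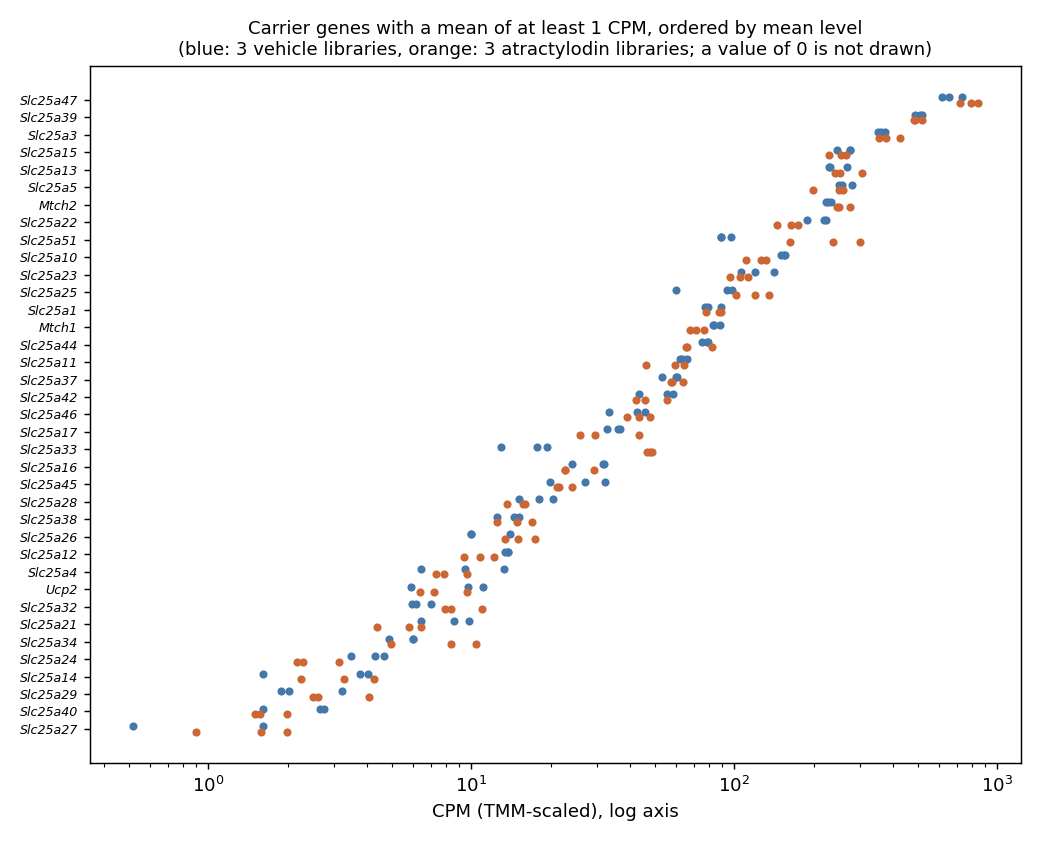
Levels of 37 carrier genes with a mean of at least 1 CPM, on a log axis of TMM-scaled CPM, with 1 point per library (blue vehicle, orange atractylodin). Slc25a47 is the highest row, and the orange points of Slc25a33 and Slc25a51 stand to the right of all their blue points.

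With atractylodin the genes of the pyrimidine nucleotide carrier Slc25a33 and the NAD carrier Slc25a51 were higher, and those of the glutamate carrier Slc25a22 and the dicarboxylate carrier Slc25a10 were lower. These 4 were the only ones of 38 tested members past an adjusted p of 0.05 in edgeR's quasi-likelihood test over 12505 rows, 2 higher and 2 lower. That is 10.5% of the tested members, and 7.25% of all tested rows passed (3.92% higher and 3.33% lower), so the share in the family was near the background. In all rows 490 were higher and 416 lower, a split that became 312 and 707 under scaling by total counts, while the same number of members was called in each direction. The median log2 fold change was -0.09 over the members and 0.00 over all rows, and the median absolute value was 0.23 in both. Groups did not overlap for 11 of the 38 members (28.9%), where 26.2% of all tested rows did not overlap. An unadjusted edgeR p under 0.05 was found for 10 of the 38 members (26.3%) and for 21.5% of all tested rows. Counts at that mark in the groups below are to be read beside this share. In bulk liver RNA, fewer cells of a type and less RNA per cell cannot be told apart.

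**Figure D2:**
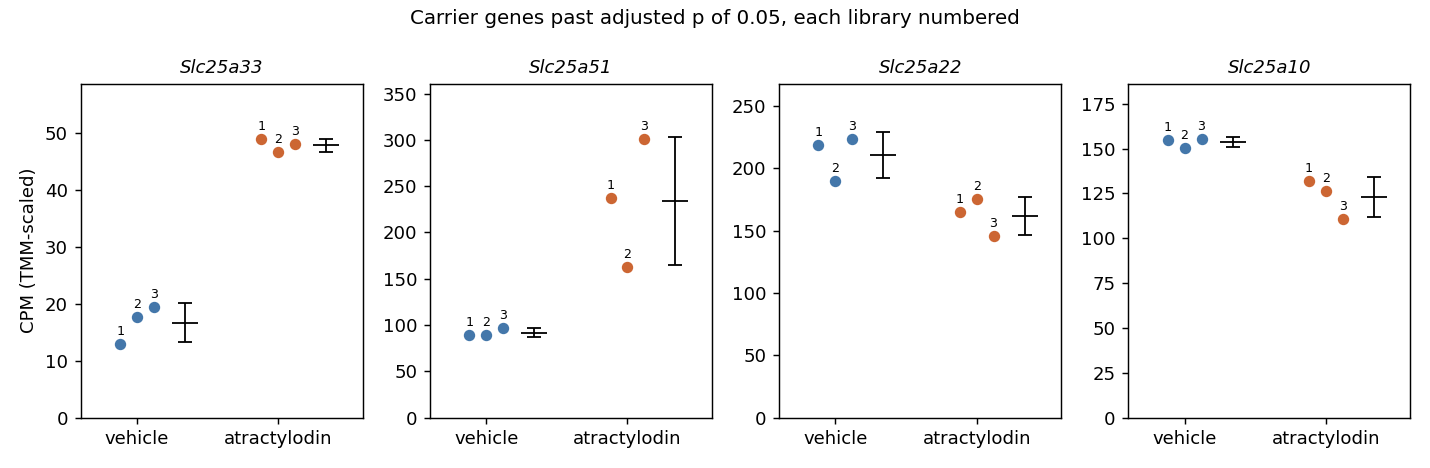
TMM-scaled CPM in each numbered library for the 4 carrier genes past the threshold, with the mean and SD of 3 libraries beside the points. All atractylodin points lie above the vehicle points for Slc25a33 and Slc25a51 and below them for Slc25a22 and Slc25a10.

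Among cofactor and nucleotide carriers, 2 of 10 tested genes rose and none fell. Slc25a33, also known as PNC1, imports pyrimidine nucleotides into the matrix, where they serve synthesis of mitochondrial RNA and DNA (GRCm38 chromosome 4, 149744036 to 149774277, minus strand, 7 exons). It stood at 12.9, 17.7 and 19.4 CPM in vehicle 1, 2 and 3 and at 48.8, 46.6 and 47.9 CPM in atractylodin 1, 2 and 3. The lowest atractylodin library was thus above the highest vehicle library. The rise was 2.72-fold (log2 1.45 ± 0.14 SE, edgeR adjusted p = 9.58e-06), and by p it was in position 5 of all 12505 rows. It stayed past the threshold in each of the 14 alternative analyses, with log2 fold changes from 1.36 to 1.56 and a highest adjusted p of 4.06e-04, in limma-voom. The predicted gene Gm13068 overlaps Slc25a33 on the opposite strand, but not within its last 500 bases.

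Slc25a36 is the other pyrimidine nucleotide carrier and was too low to be tested. Its counts were 0, 1 and 3 with vehicle and 6, 4 and 21 with atractylodin. The groups did not overlap, but atractylodin 3 held most of the counts. Without a filter on low counts its log2 fold change was 2.56 ± 1.03 (SE) and its edgeR adjusted p 0.128. Slc25a33 held 96.5% to 100% of the counts of the pair in every library, where the exact Clopper-Pearson 95% interval of the lowest, atractylodin 3, was 94.7% to 97.8%.

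Slc25a51 brings NAD into mitochondria (chromosome 4, 45395923 to 45408766, minus strand, 3 exons, with Gm25692 inside it on the same strand). Its values were 88.8, 88.9 and 97.3 CPM in vehicle 1, 2 and 3 and 238, 163 and 301 CPM in atractylodin 1, 2 and 3. The vehicle libraries lay close together, and the atractylodin libraries were all higher but spread widely. The difference was 2.54-fold (log2 1.35 ± 0.23 SE, edgeR adjusted p = 0.0227). It passed in only 2 of the 6 fits that left out a library, since without vehicle 1, 2 or 3 or without atractylodin 1 the adjusted p was 0.0897, 0.119, 0.063 and 0.112, while its log2 fold change remained between 1.13 and 1.55.

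The other 8 tested cofactor carriers did not pass. Slc25a26, which imports the methyl donor S-adenosylmethionine, averaged 11.3 ± 2.34 CPM with vehicle and 15.3 ± 2.06 CPM with atractylodin (SD, n = 3). Its groups overlapped, since vehicle 1 lay above atractylodin 2 (log2 0.52 ± 0.19 SE, edgeR adjusted p = 0.118). The 3' end of Slc25a26 overlaps that of Lrig1 on the opposite strand, and Lrig1 had the same log2 difference, 0.52 ± 0.18, so without a stated strand setting their reads cannot be told apart. Slc25a32, which carries folate and FAD, averaged 6.36 ± 0.567 CPM with vehicle and 9.10 ± 1.63 CPM with atractylodin (SD, n = 3), with no overlap (log2 0.55 ± 0.23, edgeR adjusted p = 0.177). Slc25a39, the glutathione importer and the most abundant of the group, was at 517, 506 and 488 CPM with vehicle and 518, 486 and 484 CPM with atractylodin. The groups overlapped, and the 95% interval of its log2 difference was -0.21 to 0.17. Its relative Slc25a40 averaged 2.34 ± 0.631 CPM with vehicle and 1.69 ± 0.266 CPM with atractylodin (SD, n = 3). The coenzyme A carrier Slc25a42, the peroxisomal cofactor carrier Slc25a17 and Slc25a16, linked to coenzyme A, had log2 differences from -0.21 to -0.08. The summed level of the 11 rows of this group was 750.2 to 783 CPM with vehicle and 843 to 999 CPM with atractylodin. Without Slc25a33 and Slc25a51 the other 9 rows summed to 642 to 681 CPM with vehicle and 634 to 652 CPM with atractylodin, which overlapped.

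Carriers of amino acids and choline had 1 fall and no rise among 6 tested genes. Slc25a22, which imports glutamate together with protons (chromosome 7, 141429744 to 141437892, minus strand, 10 exons), stood at 219, 189.6 and 223 CPM in vehicle 1, 2 and 3. In atractylodin 1, 2 and 3 it was at 165, 175 and 146 CPM, all below the lowest vehicle library. The fall was 1.30-fold (log2 -0.38 ± 0.10 SE, edgeR adjusted p = 0.0264). Without vehicle 1, vehicle 3 or atractylodin 3 the adjusted p was 0.11, 0.152 and 0.103.

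Slc25a15, the ornithine carrier of the urea cycle and the most abundant of the amino acid carriers, did not pass. It was at 245, 276 and 276 CPM with vehicle and 266, 229.7 and 254 CPM with atractylodin, and the groups overlapped. The 95% interval of its log2 difference ran from -0.29 to 0.10. Slc25a45 was at 19.9, 27.1 and 32.3 CPM with vehicle and 21.1, 21.5 and 24.1 CPM with atractylodin, also overlapping (edgeR adjusted p = 0.278). Slc25a44, a carrier of branched-chain amino acids, Slc25a38, a glycine carrier required for heme synthesis, and Slc25a29, a carrier of basic amino acids, had log2 differences of -0.12 ± 0.11, 0.09 ± 0.18 and 0.51 ± 0.40 (SE). The choline carrier gene Slc25a48 held 1, 11 and 14 counts with vehicle and 5, 4 and 4 with atractylodin and was not tested. Likewise untested were the other glutamate carrier gene Slc25a18, with at most 2 counts in a library, and the other ornithine carrier gene Slc25a2, with at most 8. The summed level of the 9 rows was 581 to 625 CPM with vehicle and 510.3 to 535 CPM with atractylodin. Without Slc25a22 the other 8 rows overlapped, at 362 to 402 CPM and 335 to 381 CPM.

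Di- and tricarboxylate carriers link the citric acid cycle to cytosolic glucose and lipid synthesis, and 1 of 6 tested genes fell. Slc25a10, which exchanges malate or succinate for phosphate (chromosome 11, 120491840 to 120499187, plus strand, 11 exons, with Gm11788 on the opposite strand), was at 155, 150.5 and 155 CPM in vehicle 1, 2 and 3. It was at 132, 127 and 110.5 CPM in atractylodin 1, 2 and 3, below every vehicle library. The fall was 1.25-fold (log2 -0.32 ± 0.09 SE, edgeR adjusted p = 0.0452). Of the 4 calls it was kept least often, in 1 of the 6 fits that left out a library (adjusted p up to 0.166) and lost in DESeq2 (adjusted p = 0.0768), in limma-voom (adjusted p = 0.0593) and with the replicate number as a block (adjusted p = 0.0627).

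The remaining 5 genes of that group did not pass. Slc25a21, which carries oxoadipate and related oxodicarboxylates, was at 8.61, 6.44 and 9.78 CPM with vehicle and 5.78, 4.39 and 6.43 CPM with atractylodin, so that vehicle 2 and atractylodin 3 nearly met (log2 -0.56 ± 0.26, edgeR adjusted p = 0.215). Pax9 lies on the opposite strand within its last 500 bases and had a log2 difference of -0.51 ± 0.43 (SE), so reads of these genes cannot be told apart either. Slc25a12, one of the pair of aspartate-glutamate exchangers, was at 13.5, 13.7 and 13.7 CPM with vehicle and 12.2, 9.40 and 10.8 CPM with atractylodin, without overlap (adjusted p = 0.3 in edgeR). Its partner Slc25a13, known as citrin and the main form in liver, was at 229.9, 231 and 269 CPM with vehicle and 242, 305 and 252 CPM with atractylodin, which overlapped. Slc25a13 supplied 94.4% to 95.1% of the counts of the pair with vehicle and 95.2% to 97.0% with atractylodin. The citrate carrier gene Slc25a1, which exports the carbon for fatty acid synthesis, was at 77.5, 79.2 and 88.7 CPM with vehicle and 89.2, 78.0 and 87.4 CPM with atractylodin. Its groups overlapped, and the 95% interval of the log2 difference was -0.17 to 0.26. Slc25a11, the oxoglutarate-malate exchanger of the malate-aspartate shuttle, had a log2 difference of -0.17 ± 0.12 (SE).

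Adenine nucleotide and phosphate carriers supply the ATP synthase with ADP and phosphate. None of the 6 tested genes passed in edgeR, DESeq2 or limma-voom. Only 1 had an unadjusted edgeR p under 0.05, which 21.5% of all tested rows had. That gene was Slc25a25, a calcium-regulated ATP-Mg/phosphate carrier, at 59.8, 93.6 and 97.6 CPM with vehicle and 119.9, 136 and 102 CPM with atractylodin. The groups did not overlap, though vehicle 3 and atractylodin 3 were close (log2 0.47 ± 0.17, edgeR adjusted p = 0.162). Without a filter on low counts, where more rows enter the fit, its edgeR adjusted p was 3.28e-04 at a log2 fold change of 0.48. This drop was not particular to Slc25a25. In that fit every member called in the main fit also had a lower edgeR adjusted p. These were 2.64e-20 for Slc25a33, 9.25e-17 for Slc25a51, 0.00649 for Slc25a22 and 0.0371 for Slc25a10.

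The 2 further ATP-Mg carriers tested had lower estimates. Slc25a23 was at 119.5, 106 and 142 CPM with vehicle and 95.9, 105 and 113 CPM with atractylodin (edgeR adjusted p = 0.239), and the groups overlapped. Slc25a24 averaged 4.14 ± 0.598 CPM with vehicle and 2.53 ± 0.524 CPM with atractylodin (SD, n = 3), without overlap (edgeR adjusted p = 0.256). Among the counts of these 3 genes, Slc25a25 held 32.6%, 45.9% and 40.2% in vehicle 1, 2 and 3 and 55.0%, 55.7% and 47.0% in atractylodin 1, 2 and 3. The exact Clopper-Pearson 95% interval in the shallow vehicle 1 was 27.6% to 37.8%. All atractylodin shares were higher, but by a small margin between vehicle 2 and atractylodin 3.

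Slc25a3, the phosphate carrier and the most abundant of the group, was at 360.1, 374 and 350.5 CPM with vehicle and 425, 377 and 353 CPM with atractylodin. The groups overlapped, and the 95% interval of the log2 difference was -0.11 to 0.29. Slc25a5, which encodes the ADP/ATP carrier ANT2, was at 250.3, 279.6 and 256 CPM with vehicle and 199, 258 and 251 CPM with atractylodin (edgeR adjusted p = 0.432). Slc25a4, the ANT1 gene that predominates in muscle and heart, was at 6.46 to 13.3 CPM in all libraries, and Slc25a5 supplied 95.4% to 97.5% of the counts of the pair. Slc25a31, the ANT of germ cells, had at most 4 counts in a library, Slc25a54 at most 1, and Slc25a41 none in any library.

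Uncoupling proteins were near the detection limit in these livers apart from Ucp2. Ucp2, which is known for expression in macrophages as well as in fatty hepatocytes, was at 5.92, 11.1 and 9.70 CPM with vehicle and 6.38, 7.21 and 9.60 CPM with atractylodin. The groups overlapped (log2 -0.30 ± 0.24 SE, 95% interval -0.80 to 0.21, edgeR adjusted p = 0.522). Beside it, the summed 12 macrophage markers were 383 to 547 CPM with vehicle and 314 to 472 CPM with atractylodin. Ucp1, the uncoupler of brown fat, had 0, 3 and 10 counts with vehicle and 3, 0 and 6 with atractylodin, and Ucp3, the form of muscle, at most 4 counts. The adipocyte gene Adipoq and the muscle gene Ckm had no count in any library, although the lipid droplet gene Cidec, the most abundant on the adipocyte list, was at 10.1 to 62.3 CPM, and the highest muscle marker value was 0.731 CPM, of Myh4. Slc25a14 and Slc25a27, brain-enriched relatives, did not pass either (adjusted p = 0.889 and 0.595 in edgeR), so that none of the 3 tested genes had an unadjusted p under 0.05 and DESeq2 and limma-voom called none. Slc25a27 was at 0, 0.515 and 1.62 CPM with vehicle and 0.897, 1.98 and 1.59 CPM with atractylodin, overlapping, where the 0 of vehicle 1 allows up to 1.61 CPM. Slc25a30 had at most 8 counts in a library.

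Mitoferrins import iron for heme and iron-sulfur clusters. Slc25a37, the mitoferrin of red cell precursors, was at 60.3, 60.1 and 53.1 CPM with vehicle and 57.3, 57.9 and 64.0 CPM with atractylodin. The widely expressed Slc25a28 was at 20.5, 15.2 and 18.0 CPM with vehicle and 13.7, 15.7 and 16.0 CPM with atractylodin. Both overlapped between groups, neither had an unadjusted edgeR p under 0.05, and neither passed in DESeq2 or limma-voom. The erythroid gene Alas2, the first enzyme of heme synthesis in red cells, fell beside them (log2 -0.68 ± 0.11, edgeR adjusted p = 8.45e-04), while summed erythroid markers were 2277 to 2891 CPM with vehicle and 1831 to 3582 CPM with atractylodin.

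The outer-membrane members Mtch1 and Mtch2 act in insertion of proteins into that membrane, and Slc25a46 in the shape of mitochondria. None of the 3 passed in edgeR, DESeq2 or limma-voom, and 1 had an unadjusted edgeR p under 0.05. Mtch2 was at 227, 223 and 232 CPM with vehicle and 275, 246 and 250.3 CPM with atractylodin, with no overlap (log2 0.18 ± 0.09, edgeR adjusted p = 0.259). Mtch1 was at 82.9, 83.8 and 88.0 CPM with vehicle and 71.3, 76.8 and 68.0 CPM with atractylodin, also with no overlap and in the opposite direction (log2 -0.24 ± 0.10, edgeR adjusted p = 0.152). Accordingly Mtch2 held 72.8% ± 0.401 of the counts of the pair with vehicle and 78.1% ± 1.65 with atractylodin (SD, n = 3), a ratio within each library that scaling leaves as it is. The shares were 72.5% to 73.3% with vehicle and 76.3% to 79.4% with atractylodin. This share, 1 of 8 computed between related members, was not tested. Slc25a46 was at 33.4 to 45.9 CPM with vehicle and 39.2 to 47.9 CPM with atractylodin.

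Slc25a47, a liver-enriched carrier whose substrate is disputed, was the most abundant row of the family. It was at 614, 734 and 657 CPM with vehicle and 846, 721 and 795 CPM with atractylodin. Vehicle 2 lay above atractylodin 2, so the groups overlapped (log2 0.23 ± 0.10, edgeR adjusted p = 0.177). Slc25a34, an orphan carrier, was at 4.85, 6.01 and 5.98 CPM with vehicle and 10.5, 8.35 and 4.93 CPM with atractylodin (edgeR adjusted p = 0.396). Neither passed in edgeR, DESeq2 or limma-voom, and 1 of the 2, Slc25a47, had an unadjusted edgeR p under 0.05. Slc25a35, Slc25a43 and Slc25a53, also without an agreed substrate, had at most 13, 1 and 2 counts in a library.

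**Figure D3:**
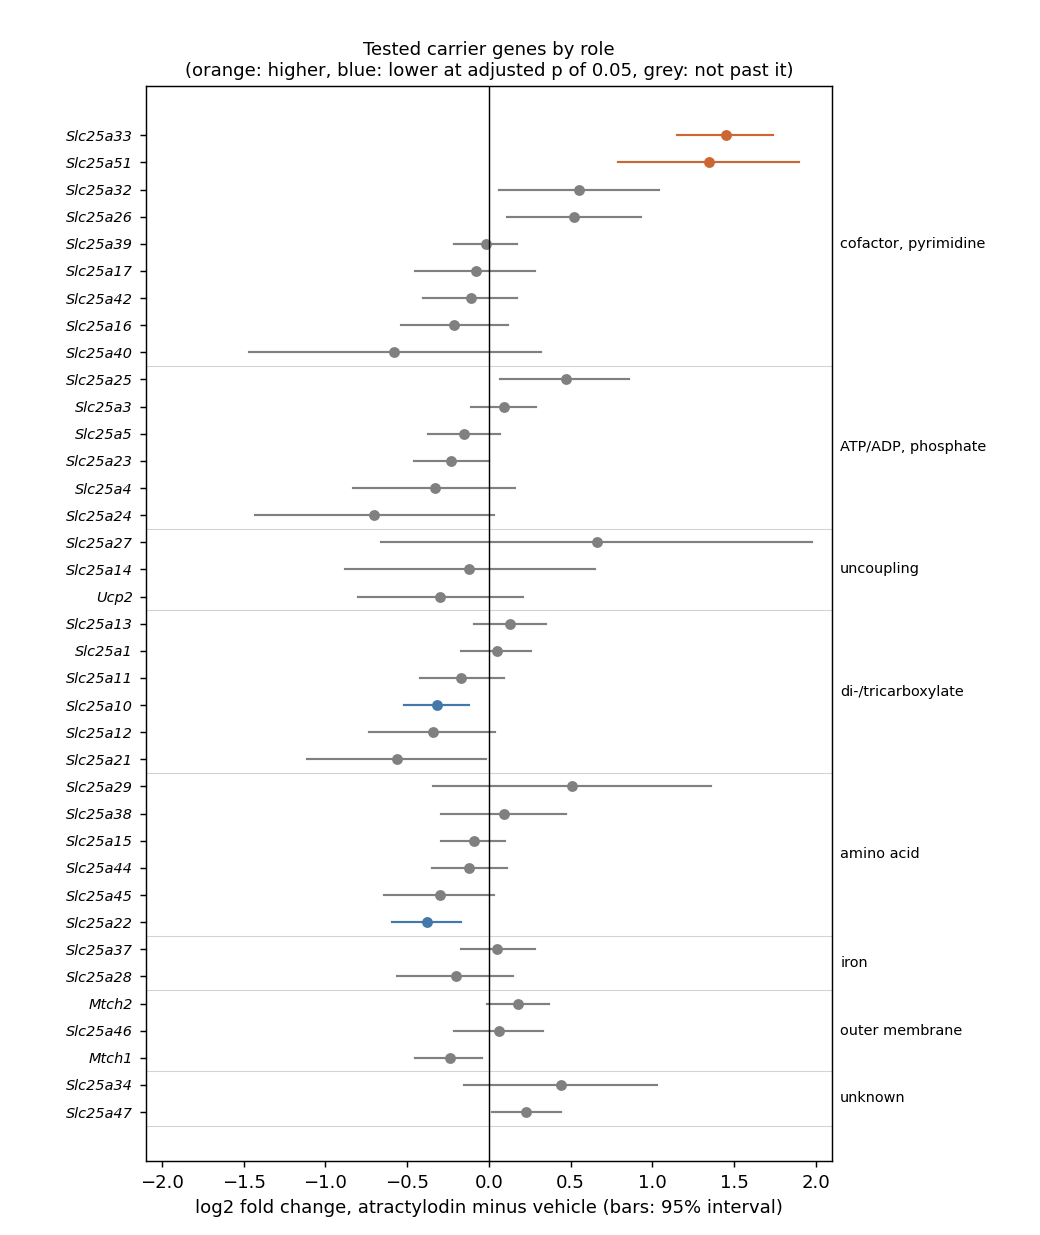
Log2 fold change, atractylodin minus vehicle, with its 95% interval for 37 of the 38 tested carrier genes, grouped by role. The intervals of Slc25a33 (1.15 to 1.74) and Slc25a51 (0.79 to 1.90) lie far to the right, those of Slc25a22 and Slc25a10 lie left of 0.

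For many of the members that did not pass, the intervals still bounded the size of a change. Of the 38 intervals of all tested members, 29 lay wholly between a 2-fold fall and a 2-fold rise. They include those of Slc25a22 and Slc25a10, which passed, and of Slc25a47, Slc25a39, Slc25a3, Slc25a15, Slc25a13 and Slc25a5, which did not. Members of a few CPM, such as Slc25a27 (-0.66 to 1.98) and Slc25a40 (-1.47 to 0.32), were not so bounded. The summed CPM of all 51 rows was 3767 to 3959 with vehicle and 4008 to 4199 with atractylodin, without overlap. As a percentage of all counts before TMM scaling the groups did overlap, with 0.382% to 0.412% and 0.389% to 0.415%, and no other scaling of the sums was computed. The family sum includes Slc25a51 (88.8 to 97.3 CPM with vehicle, 163 to 301 CPM with atractylodin) and Slc25a33 (12.9 to 19.4 and 46.6 to 48.8 CPM). It also includes Slc25a47, the largest row, which was not called (614 to 734 CPM with vehicle, 721 to 846 CPM with atractylodin). Sums without the called genes were made by role and not for the whole family. The part of any gene in the non-overlap of the family sum was not tested. Estimates were higher for 17 tested members and lower for 21, so the sum does not show a rise of the family as a whole. By role, the median log2 fold change was 0.08 for cofactor, -0.11 for amino acid, -0.24 for di- and tricarboxylate, -0.19 for adenine nucleotide, -0.12 for uncoupling, -0.07 for iron, 0.06 for outer-membrane and 0.34 for unknown-substrate members. Of the 38 tested genes, 7 overlap another annotated gene on the same strand, 13 on the opposite strand, and 4 have another gene within their last 500 bases. Those 4 are Slc25a26 and Slc25a21, named above, Slc25a23 (with Gm17168) and Ucp2 (with Dnajb13). Gm17168 and Dnajb13 lie on the opposite strand, so the levels and shares of Slc25a23 and Ucp2 have the same limit on telling reads apart.

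Genes that work beside the carriers were taken as 4 lists, each with 14 tested genes. Over all tested rows 7.25% passed (3.92% higher and 3.33% lower). The lists of import genes, of other carriers and pores, and of regulators each had 1 call, near that share. Of 14 shuttle enzymes tested, 1 rose and 4 fell, with a median log2 fold change of -0.06. Gpd1, the cytosolic glycerol 3-phosphate dehydrogenase, was at 418, 388 and 416 CPM with vehicle and 246, 189.9 and 224 CPM with atractylodin, a fall of 1.85-fold (log2 -0.89 ± 0.10, edgeR adjusted p = 5.33e-05). Its mitochondrial partner in the glycerol phosphate shuttle, Gpd2, named after its values were seen, fell 1.34-fold (edgeR adjusted p = 0.0356). Acly, which splits the citrate that Slc25a1 exports, fell from 54.0 ± 2.31 to 37.1 ± 3.02 CPM (SD, n = 3), a 1.46-fold fall (edgeR adjusted p = 0.0066). Pcx, pyruvate carboxylase, fell 1.31-fold (edgeR adjusted p = 0.0174). Me1, malic enzyme, rose from 91.6 ± 14.8 to 150.3 ± 4.37 CPM (edgeR adjusted p = 7.12e-04). Gpd1, Acly and Me1 kept their calls without any 1 library, whereas Pcx lost its call without vehicle 1, vehicle 2 or atractylodin 2. Gpd2 lost its call in 5 of the 6 such fits, all but the one without atractylodin 1, and in limma-voom. The aspartate aminotransferase and malate dehydrogenase genes of the malate-aspartate shuttle, Got1, Got2, Mdh1 and Mdh2, did not pass, although Got1 was called higher without vehicle 3 and without atractylodin 3.

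The pyruvate carrier, which is not an SLC25 protein, is made of Mpc1 and Mpc2. Mpc2 rose from 308.5 ± 28.9 to 393 ± 22.6 CPM (SD, n = 3, 1.27-fold, edgeR adjusted p = 0.0348), and it was the only call among 14 tested carriers and pores outside the family, 2 of which had an unadjusted p under 0.05 (median log2 fold change -0.12). Mpc1 stood at 83.4, 104.0 and 104.0 CPM with vehicle and 74.1, 101 and 99.2 CPM with atractylodin. The call of Mpc2 was lost without vehicle 1, vehicle 2, atractylodin 1 or atractylodin 2, with the replicate block and under scaling by total counts, where Mcu was called lower instead.

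Carriers reach the inner membrane through small chaperones of the intermembrane space and the TIM22 complex. Of 14 tested import genes 1 rose, Timm9, a subunit of the chaperone that takes carriers to TIM22 (69.3 ± 8.03 to 90.0 ± 9.37 CPM, SD, n = 3, 1.30-fold, edgeR adjusted p = 0.0463). That call was lost without vehicle 1, vehicle 3, atractylodin 1 or atractylodin 3, in DESeq2, in limma-voom, with the replicate block, with the filter at a mean of 5 CPM, and under upper quartile scaling and scaling by total counts, the last of which called Timm22 lower instead. The median log2 fold change was -0.05 for the import genes and 0.19 for 14 regulators of mitochondrial genes. Among the regulators 1 rose, Tfb2m, a factor of mitochondrial transcription (28.8 ± 2.35 to 40.9 ± 4.33 CPM, SD, n = 3, 1.43-fold, edgeR adjusted p = 0.0204). Its call was lost without vehicle 3, without atractylodin 2 and under scaling by total counts. Ppargc1a and Ppara, regulators of mitochondrial and oxidative genes, did not pass (edgeR adjusted p = 0.317 and 0.0593), although Ppara was called higher without atractylodin 3.

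**Figure D4:**
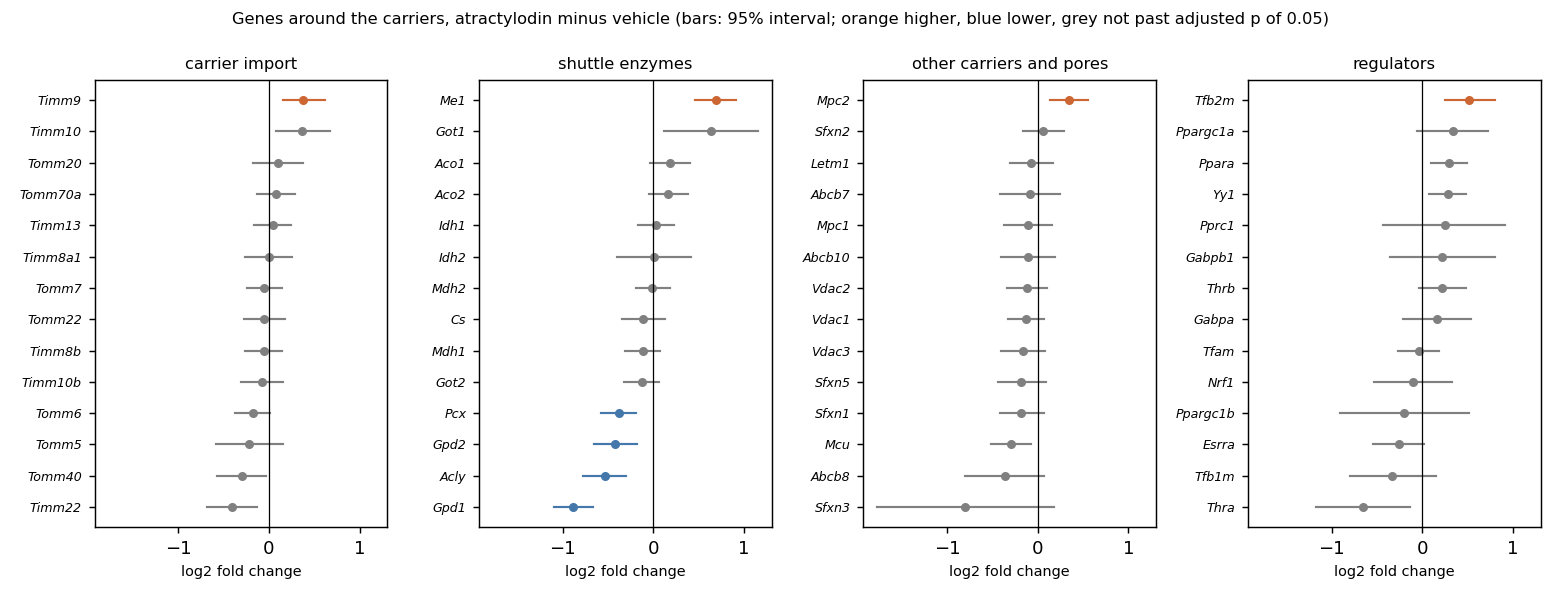
Log2 fold change, atractylodin minus vehicle, with its 95% interval for 4 lists of genes around the carriers: import machinery, shuttle enzymes, other carriers and pores, and regulators. Most points are grey and near 0, and Gpd1 (-0.89) and Me1 (0.69) are the outermost coloured points.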

How the data were processed

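The deposited files hold the authors' raw counts per gene symbol for 6 liver libraries, without normalization. The submitters' processing notes name Bowtie2, bedtools and mm10. Their versions, the gene annotation, the strand setting and the handling of reads with several matches are not given in the sources used here. QuantSeq libraries were made from 500 ng of total RNA, per the labels' protocols.

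Counts of 23282 rows were filtered with filterByExpr, scaled by TMM and tested with edgeR 4.0.16 (R 4.3.3, robust quasi-likelihood F-test, 3 against 3 libraries, no covariate). P-values were adjusted by Benjamini-Hochberg over the 12505 rows tested, with a threshold of 0.05. The SE was derived from the log2 fold change and its F statistic, and 95% intervals use the moderated degrees of freedom. DESeq2 1.42.0, limma 3.58.1 (voom), other scalings and filters, a replicate block and fits without each library were alternatives. The fit was tested on simulated data. Figures used matplotlib 3.10.9 and Python 3.11.15.

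The members and lists were chosen with earlier results of these data known. Genes named with values in each library were all members past the threshold and, in each role, the most abundant tested member and the 2 of smallest p. From the lists around them came members past the threshold, up to 4 in order of p, and from marker lists the most abundant gene and up to 3 that passed. Some results are not reported here, including the values of 1 tested member, which stays in all counts and medians. Other names were added after their values were seen. All 51 symbols matched a single GENCODE M21 gene (GRCm38), and promoter windows are from RefSeq (GRCm38.p6). Depth ran from 1831461 to 12565393 counts, and intervals of shares and detection limits cover counting error only.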

Additional observations from a re-analysis of the deposited data

How the results depend on the processing

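Across 14 alternatives, 513 values of the log2 fold changes of 37 members were compared with the main ones: 485 kept direction and side of the threshold, 15 lost the call, 1 gained it and 12 changed sign. Scaling by total counts alone gave 312 genes higher and 707 lower, moved the median of all genes to -0.09 and that of the members to -0.18. Members called lower numbered 1 in DESeq2, in limma-voom and with the replicate block. The fits without 1 library gave 236 to 400 genes higher, 215 to 362 lower, 1 to 2 members higher, 0 to 2 members lower and a member median of -0.07 to -0.03. Where edgeR called 0 members lower (without vehicle 1, vehicle 3 or atractylodin 3), 4, 2 and 6 were lower at an unadjusted p under 0.05. Over all rows in these fits, 1090 of 12883, 1100 of 12802 and 1235 of 12832 were lower at that mark. The members that changed sign passed in no setting: with total counts Slc25a37 (-0.03), Slc25a1 (-0.04), Slc25a46 (-0.02) and Slc25a38 (-0.00), without vehicle 1 Slc25a46 (-0.02), without vehicle 2 Slc25a38 (-0.01), without vehicle 3 Slc25a37 (-0.01) and Slc25a14 (0.04), without atractylodin 1 Slc25a17 (0.07) and Slc25a46 (-0.01), and without atractylodin 3 Slc25a38 (-0.02) and Slc25a14 (0.10). The other ends of the ranges without 1 library were -0.34 for Slc25a17, 0.16 for Slc25a46, 0.20 for Slc25a38 and -0.35 for Slc25a14. The cause was not tested. Correlations of deviations from the group mean did not stand out for libraries of the same replicate number. They were -0.03, -0.09 and 0.02 between same-numbered libraries and -0.08 to 0.11 between differently numbered ones. With 3 libraries per group these deviations are tied to each other, so the correlations cannot exclude pairing. Whether same-numbered libraries shared a batch is not given and was not tested. With the replicate block, 437 genes were higher and 374 lower, and the member median was -0.08. The depth of vehicle 1 limits what can be said of members of a few CPM.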
